A study of Mus musculus with 7 samples.

Results

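The laminin chains, nidogens and perlecan examined here are 10 genes, Lama1, Lama2, Lama4, Lama5, Lamb1, Lamb2, Lamc1, Nid1, Nid2 and Hspg2, chosen by symbol from the 23358 gene entries of the authors' deposited table. All 10 symbols were found. They were measured by RNA sequencing in cells labelled endothelial, sorted from the brains of C57Bl6 mouse embryos at stage E14.5, in 3 control libraries and 4 libraries labelled as lacking Tgfbr2, the type II receptor for transforming growth factor β. Cells of both groups were sorted for TdTomato, which the Ai14 reporter allele switches on after Cre recombination, and each library was made from 2000 to 5000 cells and read in single reads of 50 bases. The Cre line, the exact alleles of each group and whether embryos were pooled are details that neither labels nor headers give. For each group the authors' table holds a single FPKM per gene (fragments counted per kilobase of RNA and scaled to the size of the library), with the libraries already combined, so no spread between libraries and no depth per library could be given. The error measure is the q-value of the authors' Cuffdiff test, which compares the groups against the spread between libraries. The labels do not say that the libraries came from separate embryos, so that spread may be technical.

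Laminins are cross-shaped proteins built from 1 α, 1 β and 1 γ chain, and they polymerise into the sheet on which a basement membrane forms. Nidogens bind the γ chain encoded by Lamc1 and link that sheet to the type IV collagen network. Perlecan, the product of Hspg2, is a proteoglycan whose heparan sulfate chains hold growth factors in the membrane. In brain vessels, endothelial cells are known to make the chains encoded by Lama4 and Lama5, while Lama1 and Lama2 are better known from meningeal cells, mural cells and astrocytes.

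Of the 10 genes, 9 rose in the Tgfbr2-deficient group and 1, Nid2, did not pass the threshold of q under 0.05. The 9 genes rose by 1.93 to 13.2 times in FPKM, with the largest ratio for Lama4 and the smallest for Lamb2. Tested genes are those the authors tested that reached 1 FPKM in either group, 13356 in all, of which 23.9% were called higher and 14.7% lower. Among the tested genes within the range of control FPKM of the members (0.130 to 73.1 FPKM) 26.1% were called higher and 11.4% lower. Calls depended on the control level. Of tested genes under 5 FPKM in the control group 51.3% were called higher and 2.02% lower, and 7 of 7 laminin, nidogen and perlecan genes in that range were called higher. Of these 5008 tested genes 1624 passed the filter of 1 FPKM only through the Tgfbr2-deficient group. The 51.3%, here and where it is given below, thus depends on the filter as well as on the control level. Of tested genes at 5 FPKM or more 7.5% were called higher and 22.3% lower, and of the 3 members there, Lamb2 and Lamc1 were called higher. Lama1, Lama2, Lama5 and Hspg2 were under 1 FPKM in the control group and passed the filter of 1 FPKM only through the Tgfbr2-deficient group, so the count of 9 is a description and not independent support.

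**Figure D1:**
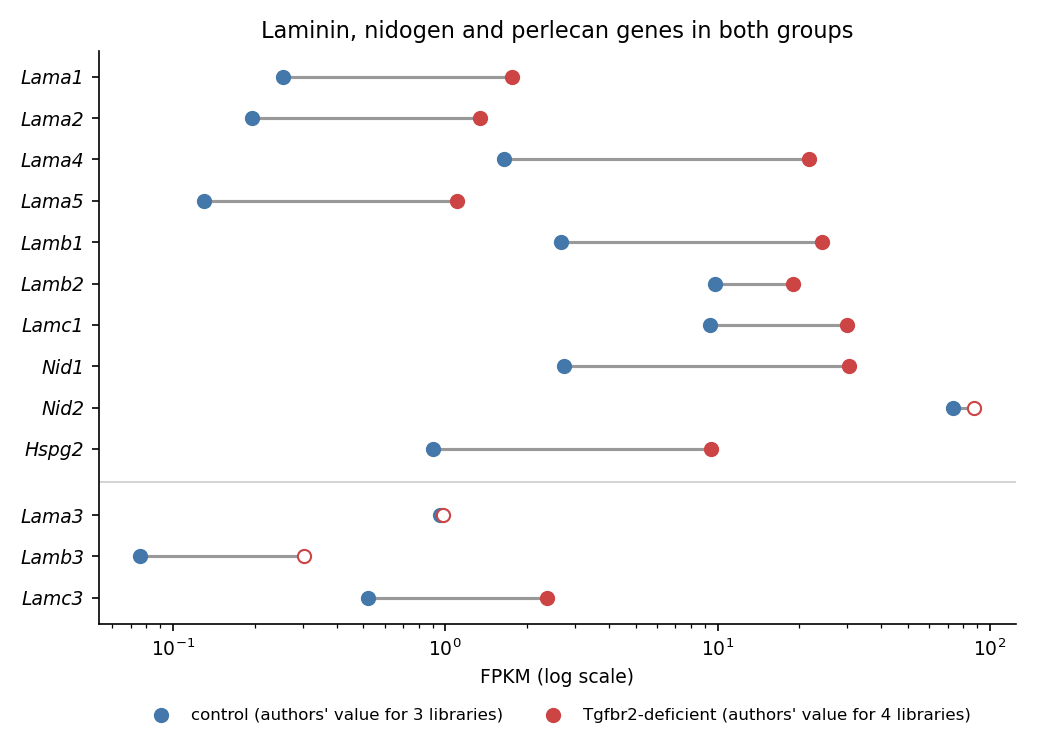
FPKM on a log scale for the 10 members (above the line) and 3 further laminin chain genes (below it), with the authors' control value in blue and their Tgfbr2-deficient value in red. Filled red circles mark genes called higher and open red circles genes not called or not tested. Nid2 was at 73.1 and 87.7 FPKM, while Nid1 rose from 2.74 to 30.3 FPKM.

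By markers in the same table, the libraries held RNA of several cell types, although the cells were labelled endothelial. Macrophage and microglia markers summed far above endothelial markers in both groups, so the levels given here cannot be assigned to endothelial cells. The 14 macrophage and microglia markers, led by C1qb, went from a summed 11807 FPKM in controls to 5307 FPKM in the group labelled Tgfbr2-deficient, and all 14 fell. The 14 endothelial markers summed to 82.0 and 393 FPKM, and 13 rose. The 12 fibroblast and meningeal markers summed to 139 and 1144 FPKM, and 12 rose, while of 11 tested pericyte and smooth muscle markers, in a list of 13 that summed to 19.7 and 104 FPKM, 9 rose. Neural progenitor markers summed to 201 and 333 FPKM (8 of 9 rose), neuron markers to 115 and 271 FPKM (9 of 9 rose), erythroid markers to 415 and 2363 FPKM (5 of 7 rose and 1 fell), and mast cell and platelet markers to 9.15 and 437 FPKM (8 of 8 rose). None of these markers was listed at 0 FPKM in either group. Endothelial, fibroblast and pericyte markers thus moved in the same direction as the 9 genes that rose. So did most neural progenitor, neuron, erythroid, and mast cell and platelet markers, so this direction was not particular to any of these types. The part of these cell types in those rises was not tested. In such bulk samples, fewer cells of a type and less RNA per cell cannot be told apart. Tgfbr2 itself was listed at 91.1 and 65.4 FPKM (q = 0.0953 in the authors' deposited table).

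The sequences just before the annotated starts of 4 members are shown because they contrast the β chain genes Lamb1 and Lamb2, whose ratios were 9.06 and 1.93, and give the genes with the largest ratios for which a start was matched, Nid1 and Hspg2. RefSeq windows of 300 bases in the GRCm38.p6 build, from 250 bases before to 50 after the start, were matched for 6 of the 10 members, the others being Lama2 and Lama5. Only bases ahead of the first exon in GENCODE M21 are printed, 5′ to 3′. Capitals mark matches on either strand to CAGAC (the SMAD box), GGGCGG (the SP1 GC box), TGANTCA (AP-1), CCGGAAG (ETS), CCAAT or TATAAA (the TATA box).
Lamb1 (chr12:31265043-31265233, plus strand): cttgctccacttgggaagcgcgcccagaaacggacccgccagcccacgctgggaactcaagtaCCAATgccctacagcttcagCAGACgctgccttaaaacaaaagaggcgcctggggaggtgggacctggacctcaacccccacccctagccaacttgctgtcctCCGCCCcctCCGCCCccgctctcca
Lamb2 (chr9:108479612-108479735, plus strand): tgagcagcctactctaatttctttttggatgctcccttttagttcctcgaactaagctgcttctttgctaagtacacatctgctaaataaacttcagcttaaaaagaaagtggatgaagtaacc
Nid1 (chr13:13437352-13437550, plus strand): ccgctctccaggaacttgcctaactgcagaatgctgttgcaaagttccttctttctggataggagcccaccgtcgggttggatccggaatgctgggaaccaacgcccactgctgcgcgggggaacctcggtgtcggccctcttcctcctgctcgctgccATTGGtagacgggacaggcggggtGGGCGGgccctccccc
Hspg2 (chr4:137468553-137468768, plus strand): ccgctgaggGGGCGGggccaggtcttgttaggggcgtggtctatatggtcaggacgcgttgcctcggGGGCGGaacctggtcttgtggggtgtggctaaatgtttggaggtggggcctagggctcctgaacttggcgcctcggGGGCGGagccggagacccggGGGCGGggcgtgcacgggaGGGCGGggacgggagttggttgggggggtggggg

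The whole 300-base window of Hspg2 held 5 GC boxes, that of Lamb1 held 2 GC boxes, 1 SMAD box and 1 CCAAT box, and that of Nid1 held 1 GC box and 1 CCAAT box. Lamb2 differed from these 3 in that its window held no GC box. Its 2 SMAD boxes lay 123 and 100 bases before the RefSeq start, in bases that GENCODE places in an exon, so they are not among the printed letters. The window of Lamb2 was 44% G and C, against 63.7% for Lamb1, 64.7% for Nid1 and 70.3% for Hspg2, and the median over all 32851 windows was 52.7%. Over those windows 35.7% held a GC box, 49.6% a SMAD box, 37.4% a CCAAT box, 7.81% the AP-1 letters, 8.86% the ETS letters and 13.6% a TATA box. Of the 6 members with a window, 5 held a GC box and 4 a SMAD box, and 0 held the AP-1, ETS or TATA letters. These matches are descriptions of sequence and not of binding.

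Among the α chain genes, Lama4 was the most abundant in both groups and rose from 1.64 to 21.7 FPKM. The authors' deposited table gives it a log2 fold of 3.72 with q = 0.00029, the smallest q in that table. Lama4 encodes the α chain of laminins that are typical of endothelium, and the gene lies on chromosome 10 of mm10 from 38965515 to 39110188, on the plus strand. On the log2(FPKM + 1) scale used for folds here, which pulls genes near 1 FPKM towards 0, it rose by 3.10, and 73 tested genes, 0.547% of all, had a larger rise. Lama4 thus stood among the larger rises of the whole table.

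Lama5, which encodes the other α chain known from endothelial basement membranes, was the least abundant member in both groups. It rose from 0.130 to 1.11 FPKM, a ratio of 8.54, with a deposited log2 fold of 3.09 and q = 0.00029 in the authors' deposited table. Its locus is on chromosome 2 from 180176373 to 180225859, on the minus strand. In the Tgfbr2-deficient group the level of Lama5 exceeded that of only 2.34% of tested genes, while Lama4 exceeded 71.8%. The 2 α chain genes associated with endothelium thus both rose, from very different levels. Lama1 and Lama2 rose too, so a rise was not particular to this pair.

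Lama1 and Lama2, which encode the first described laminin α chain and the chain of muscle and of glial and meningeal basement membranes, were also low. Lama1 rose from 0.253 to 1.75 FPKM (ratio 6.93) and lies on chromosome 17 from 67697265 to 67822645. Lama2 rose from 0.195 to 1.34 FPKM (ratio 6.90) and lies on chromosome 10 from 26981285 to 27616942. Both had q = 0.00029 in the authors' deposited table. Because both were well under 1 FPKM in the control group, their folds on the log2(FPKM + 1) scale were only 1.14 and 0.97.

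The mix of α chains shifted towards Lama4. FPKM is scaled by transcript length, so levels of different genes can be summed. Lama4 was 51.6% of the summed FPKM of the 5 α chain genes in the control group and 80.7% in the Tgfbr2-deficient group. The largest part of the rest in the control group was Lama3, the α chain of epithelial laminins, which was at 0.960 and 0.981 FPKM, with q = 0.948 in the authors' deposited table, and so went from 30.2% to 3.65% of the sum. Without Lama3 in the sum the share of Lama4 was 74.0% and 83.8%, so the shift was smaller once this gene near 1 FPKM was left out. Lama5 had a share of 4.08% and 4.12%. No error can be given for these shares.

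**Figure D2:**
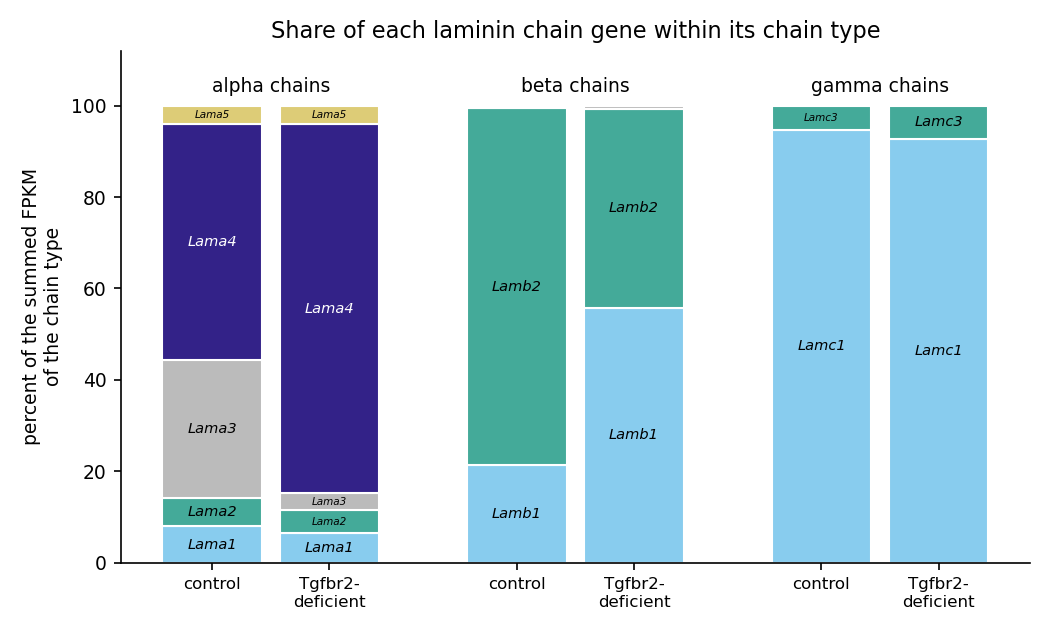
Percent of the summed FPKM of each laminin chain type (α, β, γ) taken by each gene in the control and Tgfbr2-deficient groups, from 1 value per group and gene. Lama4 went from 51.6% to 80.7% of the α sum and Lamb1 from 21.3% to 55.8% of the β sum, while Lamc1 took 94.8% and 92.7% of the sum of Lamc1 and Lamc3. Lamb3, under 1% of its sum, is drawn without a name.

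The β chain genes exchanged their order. Lamb1, the β chain gene widely expressed in the embryo, rose from 2.67 to 24.1 FPKM, a ratio of 9.06, with a deposited log2 fold of 3.18 and q = 0.00029 in the authors' deposited table. Lamb2, the β chain gene of synaptic, kidney and vessel wall laminins, rose less, from 9.78 to 18.9 FPKM, with a deposited log2 fold of 0.95 and q = 0.00029 in the authors' deposited table. Lamb2 was thus 3.67 times the level of Lamb1 in the control group and 0.781 times its level in the Tgfbr2-deficient group. Its share of the β sum went from 78.1% to 43.5%. Lamb1 lies on chromosome 12 from 31265294 to 31329639 and Lamb2 on chromosome 9 from 108479862 to 108490530, both on the plus strand. The difference between the rises of Lamb1 and Lamb2 could not be tested without values per library.

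Lamc1, which encodes the γ chain shared by most laminins, rose from 9.40 to 29.8 FPKM, a ratio of 3.18, with a deposited log2 fold of 1.67 and q = 0.00029 in the authors' deposited table. It lies on the minus strand of chromosome 1 from 153218922 to 153332786. Lamc1 made up 94.8% and 92.7% of the summed FPKM of Lamc1 and Lamc3. Lamc3, another γ chain gene and not a member, also passed the test, rising from 0.520 to 2.36 FPKM with q = 0.00029 in the authors' deposited table. Lamb3, a β chain gene of epithelial laminin, was at 0.0760 and 0.304 FPKM and was not tested by the authors.

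The summed chain types came closer to each other in the Tgfbr2-deficient group. The α genes, with Lama3 among them, summed to 3.18 FPKM in controls and 26.9 FPKM in the deficient libraries, a ratio of 8.46. Without Lama3 the α sums were 2.22 and 25.9 FPKM, a ratio of 11.7, so comparisons with the α sum depend on this gene. The β genes summed to 12.5 and 43.3 FPKM, and the γ genes Lamc1 and Lamc3 to 9.91 and 32.2 FPKM, ratios of 3.46 and 3.25. The β sum was 3.94 times the α sum in the control group and 1.61 times in the Tgfbr2-deficient group, and this γ sum was 3.12 and 1.20 times the α sum. The β sum stayed close to the γ sum, at 1.26 and 1.34 times. These are ratios of RNA in mixed cells and give no ratio of assembled protein.

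Nid1 and Nid2 encode nidogens with related domains, and their values in the table differed in both level and change. Nid1 rose from 2.74 to 30.3 FPKM, a ratio of 11.1, with a deposited log2 fold of 3.47 and q = 0.00029 in the authors' deposited table. It lies on chromosome 13 from 13437602 to 13512275, on the plus strand. Its level was 0.292 times that of Lamc1, whose product it binds, in the control group and 1.02 times in the Tgfbr2-deficient group. Nid2 was the most abundant member in both groups, at 73.1 and 87.7 FPKM, with a deposited log2 fold of 0.26, p = 0.363 and q = 0.493 in the authors' deposited table. The listed level of Nid2 was 26.7 times that of Nid1 in the control group and 2.89 times in the Tgfbr2-deficient group, and exceeded 90.1% and 94.0% of tested genes.

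The value of Nid2 is uncertain because its last exon overlaps a gene on the opposite strand. Nid2 was the 1 member that shared its locus in the table with another entry, 2700060E02Rik, now named Rtraf, and the table gives both genes the interval on chromosome 14 from 19751257 to 19823823. In GENCODE M21 the genes end tail to tail and share 437 exonic bases, which are 8.96% of the longest protein-coding Nid2 transcript (4876 bases) and 28% of that of Rtraf (1562 bases). The entry 2700060E02Rik was at 71.1 FPKM in controls and 56.1 FPKM in the Tgfbr2-deficient libraries (q = 0.717 in the authors' deposited table). The library kits named in the labels do not mark strand, so reads from the shared bases cannot be assigned to either gene by strand. How much of the Nid2 value comes from reads of this neighbour was not tested. Antisense RNAs annotated in GENCODE also share exonic bases with Lama2 (631 bases) and Nid1 (143 bases), and no exon overlap was found for the 7 members other than these and Nid2.

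**Figure D3:**
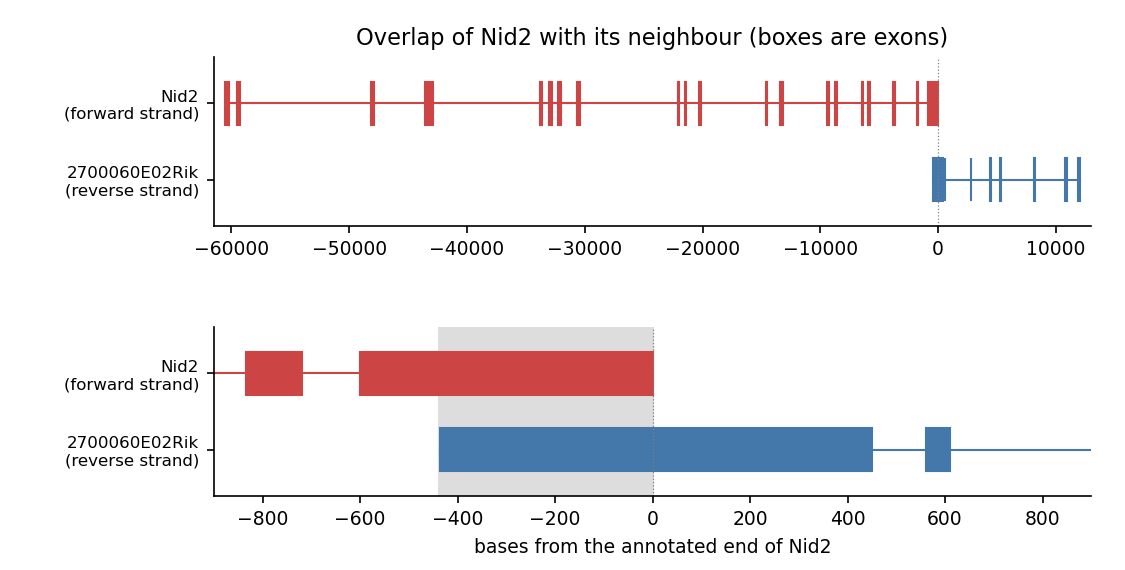
Exons (boxes) of the longest protein-coding GENCODE M21 transcripts of Nid2 and of 2700060E02Rik (Rtraf), plotted as bases from the annotated end of Nid2, over the whole genes (top) and around the overlap (bottom). The grey band marks the 437 bases that both transcripts contain.

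Hspg2, which encodes perlecan, rose from 0.905 to 9.50 FPKM, a ratio of 10.5, with a deposited log2 fold of 3.39 and q = 0.00029 in the authors' deposited table. It lies on chromosome 4 from 137468803 to 137570630, on the plus strand. On the log2(FPKM + 1) scale it rose by 2.46, and 1.5% of tested genes had a larger rise. Its level was 0.0963 times that of Lamc1 in the control group and 0.318 times in the Tgfbr2-deficient group.

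The 3 genes with the highest control levels, Nid2, Lamb2 and Lamc1, had the 3 smallest FPKM ratios, 1.20, 1.93 and 3.18. Both the level and the ratio of Nid2 are uncertain because of its overlap with 2700060E02Rik. The 7 genes under 5 FPKM in the control group had ratios from 6.90 for Lama2 to 13.2 for Lama4, and among them the lowest control levels, those of Lama5, Lama2 and Lama1, did not go with the largest ratios. The control level is the denominator of each ratio, so these quantities share a measurement, and no correlation is given. In the Tgfbr2-deficient group Nid1, Lamc1, Lamb1, Lama4 and Lamb2 lay between 18.9 and 30.3 FPKM, whereas in the control group the same 5 genes lay between 1.64 and 9.78 FPKM. Without values per library it cannot be said which neighbours in either order differ beyond their spread.

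**Figure D4:**
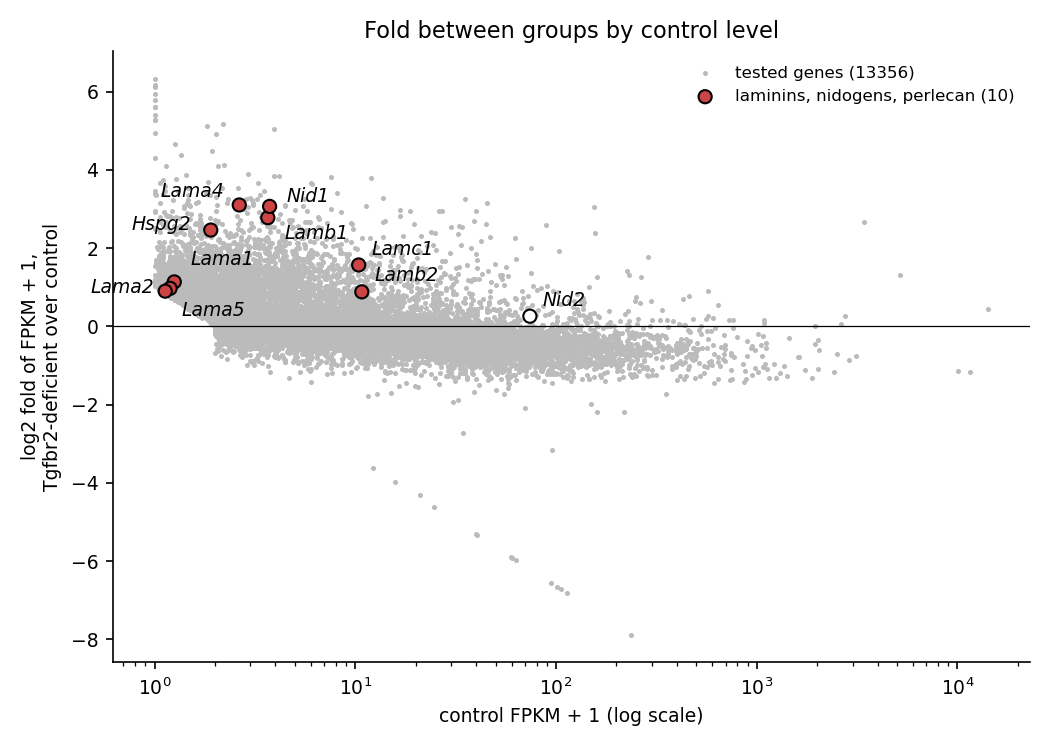
Log2 fold of FPKM + 1, Tgfbr2-deficient over control, against control FPKM + 1 on a log scale, for 13356 tested genes (grey) and the 10 members (red when called higher, white for Nid2). Lama4, Nid1, Lamb1 and Hspg2 have folds of 2.46 to 3.10, and Lama1, Lama2, Lama5 and Lamb2 of 0.88 to 1.14.

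Other basement membrane components rose with the members. The type IV collagen genes Col4a1 and Col4a2, which encode the network that nidogen joins to laminin, rose from 11.0 to 164 FPKM and from 7.14 to 85.8 FPKM. Col18a1, the source of endostatin, rose from 6.56 to 59.3 FPKM. In a list of 25 components 24 were found, 17 could be tested, and 17 rose, against 23.9% of all tested genes. The median control level of the 17 genes was 2.74 FPKM, and 51.3% of tested genes under 5 FPKM in the control group were called higher. Their median log2(FPKM + 1) fold was 2.09, against 1.35 for the 10 members and −0.08 for all tested genes. The gap to the members depended on the pseudocount. At 0.1 FPKM the medians were 2.60 for these components and 2.39 for the members. Of the 17 genes, 4 passed the filter only through the Tgfbr2-deficient group. In the same groups the median was 2.74 for fibroblast and meningeal markers, 2.70 for endothelial markers and 2.0 for pericyte and smooth muscle markers. It was 4.78 for mast cell and platelet, 2.17 for erythroid, 1.41 for neuron and 1.14 for neural progenitor markers. For macrophage and microglia markers it was −1.12. The part of these cell types in the collagen and laminin rises was not tested.

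Of 11 laminin receptor genes 6 rose and 0 fell, against 23.9% and 14.7% of all tested genes, with a median log2(FPKM + 1) fold of 0.96. Their median control level was 1.80 FPKM, and 51.3% of tested genes under 5 FPKM in the control group were called higher. Mcam, an adhesion molecule that binds laminins with the Lama4 chain, rose from 1.80 to 22.9 FPKM, and Bcam, which binds laminins with the Lama5 chain, from 2.70 to 15.5 FPKM. The integrin gene Itga2 rose from 0.0667 to 1.58 FPKM. The receptor genes that were abundant in the control group did not pass the test. The integrin chain gene Itgb1 was at 131 and 124 FPKM, its partner Itga6 at 69.2 and 49.9 FPKM, and Dag1, which encodes dystroglycan, at 26.9 and 31.2 FPKM. Of the 6 receptor genes that rose, 4 were under 1 FPKM in the control group. Endothelial markers, among which Mcam and Bcam were not counted, moved in the same direction. So did most markers of the other listed cell types except macrophages and microglia, and the part of these cell types was not tested.

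The enzymes that add the laminin-binding sugar to dystroglycan showed no common direction. Of 15 tested genes 2 rose and 3 fell, against 23.9% and 14.7% of all tested genes, and the median log2(FPKM + 1) fold was −0.06. Their median control level was 17.9 FPKM. Of tested genes at 5 FPKM or more in the control group, 7.5% were called higher and 22.3% lower. Gtdc2, now named Pomgnt2, rose from 2.75 to 6.56 FPKM and the glycosyltransferase gene Large from 1.83 to 3.55 FPKM. The kinase gene 4930444A02Rik, now named Pomk, fell from 19.2 to 11.1 FPKM, and Dpm2 and Dpm3, subunits of dolichol phosphate mannose synthase, fell from 59.5 to 37.9 FPKM and from 51.6 to 29.7 FPKM.

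Of 20 genes that build and edit heparan sulfate, the sugar that perlecan carries, 8 rose and 1 fell, against 23.9% and 14.7% of all tested genes, with a median log2(FPKM + 1) fold of 0.12. Of the 20 genes, 3 passed the filter only through the Tgfbr2-deficient group. The median control level was 12.1 FPKM, with genes on both sides of 5 FPKM. Calls over all tested genes were 51.3% higher and 2.02% lower under 5 FPKM in the control group, and 7.5% and 22.3% at 5 FPKM or more. The sulfotransferase genes Hs3st1 and Hs6st2 rose from 2.71 to 14.49 FPKM and from 0.788 to 5.63 FPKM. Sulf1, which removes sulfate groups outside the cell, rose from 2.64 to 13.6 FPKM. Ndst2, a sulfotransferase of the heparin of mast cells, fell from 39.2 to 25.8 FPKM. Ext1 and Ext2, which polymerise the chain, were at 13.7 and 15.3 FPKM and at 49.4 and 45.2 FPKM and did not pass the test.

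**Figure D5:**
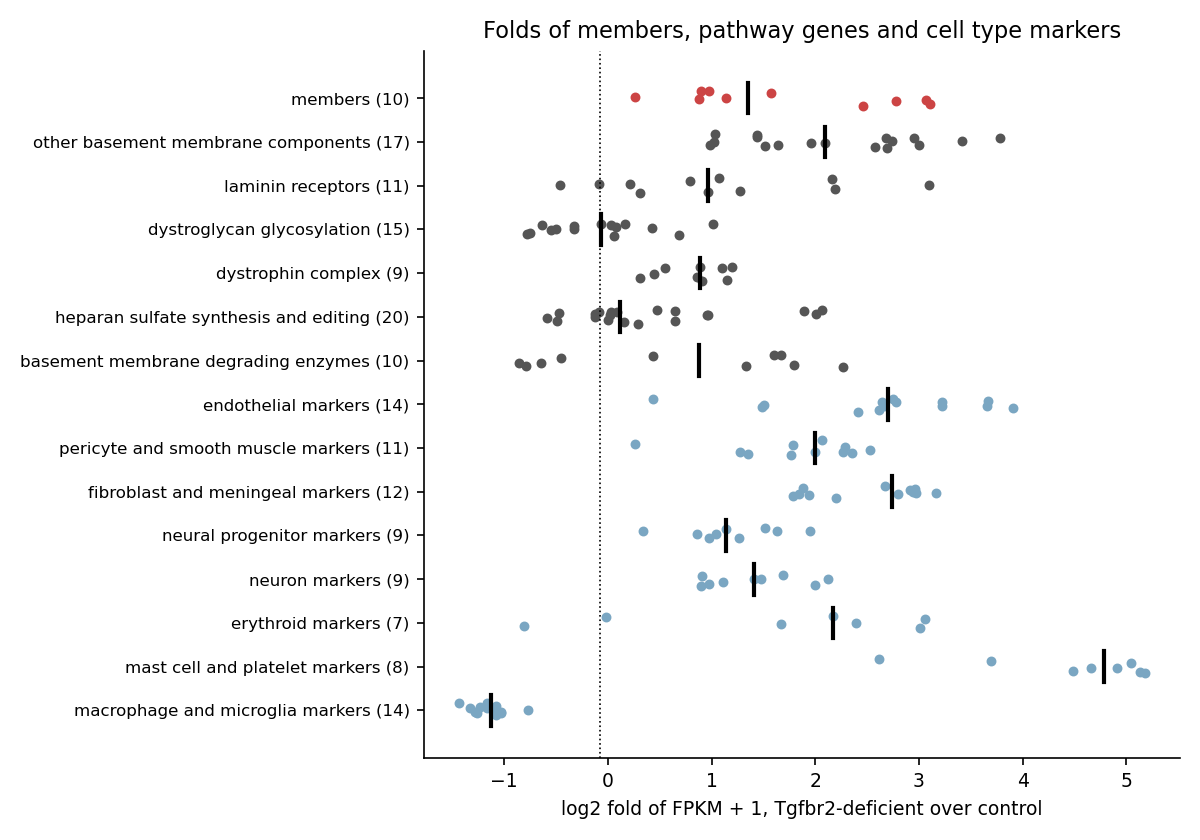
Log2 fold of FPKM + 1, Tgfbr2-deficient over control, of each tested gene (points) in the members, in 6 pathway lists and in 8 lists of cell type markers, with the number tested in brackets, list medians as bars and the median of all tested genes as a dotted line. The median was 1.35 for the members and 2.09 for other basement membrane components, and lay at −1.12 for macrophage and microglia markers.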

How the data were processed

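RNA was made into libraries with a micro-scale column kit, SMART-Seq v4 and Nextera XT, per the labels' protocols, and neither kit marks strand. Reads were processed with TopHat2, Cufflinks 2.2.1 and Cuffdiff on mm10, per the submitters' processing notes; which annotation and options were used is not given in the sources used here. As for units, the authors' deposited FPKM values are 1 per gene and group, per the file headers, and the table held 0 columns per library. The deposited log2 fold divides the Tgfbr2-deficient by the control FPKM, without a pseudocount. The deposited p-value and q-value are those of the authors' Cuffdiff test, adjusted over all genes, and 2357 tested genes share the smallest p-value, 5e-05, so genes at that value cannot be ranked by it. The deposited test score was not used.

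Genes with status OK and at least 1 FPKM in a group (13356 of 14043) were called at a deposited q under 0.05. Folds are log2(FPKM + 1), computed with pandas 2.3.3. Nothing else was tested. The calling step was run on simulated p-values with planted genes, which checks its code and says nothing about the authors' Cuffdiff calls. The members and gene lists were chosen with earlier results of these data known, and the split at a control level of 5 FPKM was chosen after values were seen. Some list genes are not reported here and were left out of the counts and sums. Of the other 195 list symbols 194 were found, 8 of them through RefSeq synonyms (GRCm38.p6). All members are named, with, for each pathway list, up to 3 genes with the smallest p among those called (ties by fold) and genes called against their list. Itgb1, Itga6, Dag1, Ext1, Ext2, C1qb, Ctsb, Hpse, Plau and 2700060E02Rik, and Dpm2 and Dpm3 where a count was small, were named after their values were seen. Loci are those of the deposited table, counted from 1. Alternatives were other FPKM filters, q thresholds, a minimum on the deposited log2 fold, recomputed q-values, a pseudocount of 0.1 FPKM, 2 centrings and α shares without Lama3.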

Additional observations from a re-analysis of the deposited data

How the results depend on the processing

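The depth of the libraries is unknown, so how far it limits the low FPKM values could not be said. No paired analysis was possible because the table holds 1 value per group, and for the same reason no library could be left out. Of the 10 members, the same 9 were called higher with no FPKM filter, at q under 0.01 and with q-values recomputed over the filtered genes. These settings could not have changed a member's call. All 10 members already passed the filter of 1 FPKM, the 9 genes share the smallest p-value, and Nid2 had p = 0.363 in the authors' Cuffdiff test. With an absolute deposited log2 fold of at least 1 required 8 were called, Lamb2 being lost. That fold has no pseudocount. On the log2(FPKM + 1) scale Lama2 and Lama5 were also under 1, at 0.97 and 0.90. With a minimum of 5 FPKM 6 were called, since Lama1, Lama2 and Lama5 were no longer tested. Under these 5 alternatives 0 members were called lower, and none could be, since every member's deposited log2 fold was above 0. The share of all tested genes called higher was 24.8% with no filter, 20.3% at q under 0.01, 23.9% with recomputed q-values, 20.1% with the fold minimum and 17.2% at 5 FPKM. Folds move up by 0.54 when centred on 81 ribosomal protein genes and by 0.08 when centred on all tested genes. All member folds were already above 0, so neither shift could change the sign of a member's fold. At a pseudocount of 0.1 FPKM the median of the members went from 1.35 to 2.39 and that of other basement membrane components from 2.09 to 2.60. The median of laminin receptors went from 0.96 to 1.85 and that of the dystrophin complex from 0.89 to 1.51. Centred on ribosomal protein genes, the median was 1.43 for the dystrophin complex and 0.66 for heparan sulfate genes. The share of Lama4 among α chains in the control group went from 51.6% to 74.0% without Lama3.

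With a minimum of 5 FPKM, 0 other laminin chains, 2 laminin receptors, 1 dystroglycan enzyme and 2 dystrophin complex genes were called higher. With the same minimum on the deposited log2 fold, 1 dystroglycan enzyme and 5 heparan sulfate genes were called higher. Under it 0 dystroglycan, 0 heparan sulfate and 0 degrading enzyme genes were called lower. At q under 0.01, 1 dystroglycan, 0 heparan sulfate and 1 degrading enzyme gene were called lower. The median of the dystroglycan enzymes turned from −0.06 to 0.016 when centred on all tested genes and to 0.48 when centred on ribosomal protein genes.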

Other observations

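The dystrophin complex, which ties dystroglycan to the cytoskeleton, held genes that rose from low levels. The syntrophin gene Sntb1 rose from 0.543 to 2.54 FPKM and Utrn, which encodes utrophin, from 1.38 to 4.12 FPKM, and Sspn, which encodes sarcospan, from 0.296 to 1.40 FPKM. Of 9 tested genes of this list that are reported here, 6 rose by the q-values of the authors' deposited table, with a median log2(FPKM + 1) fold of 0.89, and 4 of the 9 passed the filter only through the Tgfbr2-deficient group. The background was 23.9% higher and 14.7% lower over all tested genes. The median control level of the 9 genes was 1.38 FPKM, and of tested genes under 5 FPKM in the control group 51.3% were called higher and 2.02% lower.

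Enzymes that cut basement membrane components moved in both directions. The metalloproteinase genes Mmp14, Mmp2 and Mmp9 rose from 9.77 to 50.8, from 6.52 to 25.0 and from 8.09 to 27.9 FPKM. The cathepsin genes Ctss and Ctsl fell from 480 to 266 and from 250 to 160 FPKM, and Ctsb, at 1612 and 932 FPKM, did not pass the test. The heparanase gene Hpse, at 6.52 and 9.14 FPKM, and the urokinase gene Plau, at 4.12 and 2.74 FPKM, did not pass either. Of 10 tested genes 5 rose and 2 fell by the q-values of the authors' deposited table, against 23.9% and 14.7% of all tested genes. Their median control level was 7.31 FPKM, and of tested genes at 5 FPKM or more in the control group 7.5% were called higher and 22.3% lower. Over the same groups all 14 macrophage and microglia markers fell, with a median log2(FPKM + 1) fold of −1.12, and their part in the fall of the cathepsin genes was not tested.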
